A study of Saccharomyces cerevisiae with 6 samples.

Results

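The enzymes of the tricarboxylic acid cycle were followed in the budding yeast Saccharomyces cerevisiae through 10 genes taken by symbol, CIT1, ACO1, IDH1, IDH2, KGD1, KGD2, LSC1, LSC2, FUM1 and MDH1, out of 5449 genes tested on the Affymetrix Yeast Genome 2.0 array. Each of the 10 had 1 probe set, so no choice between probe sets was needed, and all 10 lay above the background level on all 6 arrays. All cultures were of strain 26972c, an ammonium transport mutant with the genotype mep1-1, mep2 deleted, Mep3 and ura-. The 3 control arrays came from cells with the empty vector pYES3. The other 3 came from cells whose pYES3 carried GmbHLHm1 (SAT1), which encodes a basic helix-loop-helix transcription factor of soybean, behind the vector's galactose-driven promoter. Both groups were grown on glucose and proline, washed, and then held for 12 h in minimal medium with 2% galactose and 1 mM ammonium, given as 0.5 mM ammonium sulfate. The comparison asks which yeast transcripts differ between cells with and without the soybean gene.

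The cycle runs in the mitochondrial matrix, where acetyl groups are oxidised to carbon dioxide and electrons pass to the respiratory chain through NADH and succinate dehydrogenase. It also supplies alpha-ketoglutarate, the carbon skeleton onto which yeast fixes ammonium as glutamate. In yeast its genes are known to be repressed by glucose and activated by the Hap2/3/4/5 complex, and those of the span from citrate to alpha-ketoglutarate also answer to the retrograde factors Rtg1 and Rtg3 when respiration is impaired.

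Values are log2 RMA intensities, and 98.3% to 98.9% of the tested genes lay above the background level of the array. The probe set of MEP2, which this strain lacks, lay below that level on all 6 arrays, and no probe set used here is named for GmbHLHm1. The MEP2 probe set still had a log2 change of -0.40 (limma, adjusted p = 0.0433). The test thus also called a probe set that lay below the background level. Array controls for 18S and 25S ribosomal RNA, 16 probe sets in all, read lower on the GmbHLHm1 arrays with a median change of -1.01 on the log2 scale, and the bacterial and phage hybridization controls had a median of -0.09 over 27. The part of this ribosomal RNA difference in the results that follow was not tested. The labels call the replicates independent but describe starter cultures that were divided over tubes, without saying whether the replicates of a group came from 1 starter or several. The p-values therefore cover the spread among these samples, which may be technical. A starter or transformant difference between the groups cannot be told apart from GmbHLHm1.

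Of the 10 cycle enzymes 2, LSC1 and MDH1, rose in GmbHLHm1 cells and none fell (limma, adjusted p under 0.05 over all tested genes). LSC1, a subunit gene of succinyl-CoA ligase, was 1.42-fold higher and MDH1, the mitochondrial malate dehydrogenase gene, 1.35-fold higher. Across all tested genes the same test called 7.45% higher and 4.64% lower. The log2 changes of the 10 ran from 0.02 for CIT1 to 0.51 for LSC1 with a median of 0.14, beside a median of 0.02 over all tested genes. All 10 were above 0 as deposited, as were 3089 of the 5449 tested genes. With each array centred on the median of the tested genes, however, the log2 change of CIT1 was -0.0039. None of the 10 reached a 2-fold change. At an unadjusted p under 0.05 there were 6 of the 10, all higher. Of the 5449 tested genes 892 were higher and 576 lower at that level, together 26.9%.

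In 6 of the 10, IDH2, KGD1, KGD2, LSC1, LSC2 and MDH1, every GmbHLHm1 array lay above every empty vector array. That held for 19.3% of all tested genes, and the opposite order for 13.9% of them and for none of the 10. The mean log2 intensity over the 10 genes was 12.80, 12.79 and 12.79 on empty vector replicates 1, 2 and 3, and 12.94, 12.99 and 12.99 on the GmbHLHm1 replicates. The GmbHLHm1 arrays varied more: the median SD over the 10 genes was 0.030 for the empty vector and 0.067 for GmbHLHm1. Over all tested genes these medians were 0.050 and 0.087. Of the 10 genes 2, 5 and 3 peaked on GmbHLHm1 replicates 1, 2 and 3, which does not measure how much of a change 1 array carried. Relative to the empty vector mean, MDH1 was even over these replicates at 0.42, 0.44 and 0.43. IDH2, at 0.13, 0.11 and 0.28, and LSC2, at 0.17, 0.35 and 0.18, were each highest on 1 array. In bulk cultures a difference in the make-up of the cell population and a difference in RNA per cell cannot be told apart.

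**Figure D1:**
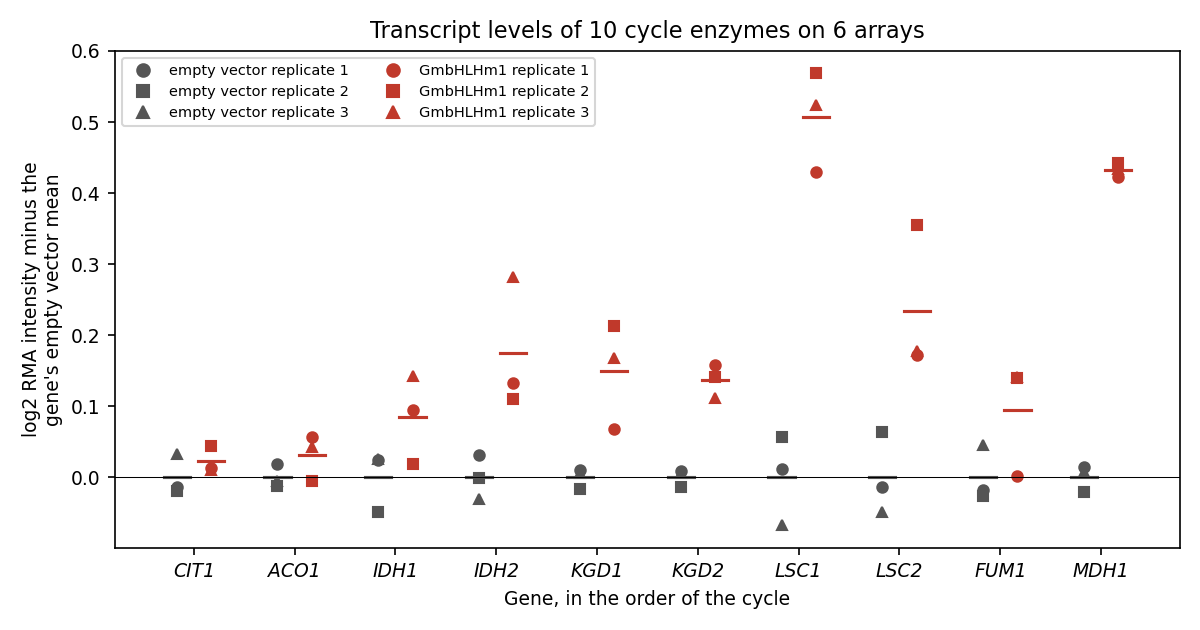
Each point is the log2 RMA intensity of a gene on 1 array minus that gene's mean over the empty vector arrays, in grey for the empty vector and red for GmbHLHm1, with marker shapes for replicates and lines for group means (n = 3 per group). The red points of LSC1 and MDH1 stand apart at means of 0.51 and 0.43, whereas those of CIT1 and ACO1 overlap the grey ones.

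The entry to the cycle showed the smallest differences. CIT1 (YNR001C), the mitochondrial citrate synthase that joins acetyl-CoA to oxaloacetate, measured 13.70, 13.70 and 13.75 on the empty vector arrays and 13.73, 13.76 and 13.73 on the GmbHLHm1 arrays. The groups overlapped, and the log2 change was 0.02 ± 0.04 (SE; 95% confidence interval -0.08 to 0.12; adjusted p = 0.788). ACO1 (YLR304C), the aconitase that turns citrate into isocitrate, measured 13.98, 13.95 and 13.96 against 14.02, 13.96 and 14.00. Its groups overlapped too, with a log2 change of 0.03 ± 0.04 (SE; interval -0.07 to 0.13; adjusted p = 0.702). The upper ends of both intervals lay below the lower ends of those of LSC1 and MDH1.

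NAD-dependent isocitrate dehydrogenase, which makes alpha-ketoglutarate, is built from the products of IDH1 and IDH2. IDH1 (YNL037C), the regulatory subunit gene, measured 12.31, 12.24 and 12.31 on the empty vector arrays and 12.38, 12.31 and 12.43 on the GmbHLHm1 arrays. The groups overlapped at their edges and the log2 change was 0.09 ± 0.05 (SE; adjusted p = 0.343). IDH2 (YOR136W), the catalytic subunit gene, measured 12.17, 12.14 and 12.11 against 12.27, 12.25 and 12.42. Here the groups did not overlap, with GmbHLHm1 replicate 3 the highest, and the log2 change of 0.17 ± 0.06 (SE; interval 0.04 to 0.31) did not pass the test (adjusted p = 0.104).

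The alpha-ketoglutarate dehydrogenase complex oxidises alpha-ketoglutarate to succinyl-CoA, and KGD1 and KGD2 encode its own dehydrogenase and succinyltransferase components. KGD1 (YIL125W) measured 12.56, 12.53 and 12.55 on the empty vector arrays and 12.62, 12.76 and 12.72 on the GmbHLHm1 arrays. The groups did not overlap; the log2 change was 0.15 ± 0.05 (SE), with an adjusted p of 0.114, and 0.19 with an adjusted p of 0.0377 without GmbHLHm1 replicate 1, the lowest of the 3. Over the fits that left out 1 array its adjusted p ran up to 0.279. KGD2 (YDR148C) measured 13.05, 13.03 and 13.05 against 13.20, 13.18 and 13.15. Both groups were tight and apart, and the log2 change was 0.14 ± 0.04 (SE; adjusted p = 0.0809). Over the alternative fits its adjusted p ran from 0.0135 with a trended and robust prior to 0.231 without empty vector replicate 2.

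Succinyl-CoA ligase conserves the energy of succinyl-CoA as a nucleoside triphosphate, the only step of the cycle that does so directly. LSC1 (YOR142W), its alpha subunit gene, measured 12.03, 12.07 and 11.95 on the empty vector arrays and 12.45, 12.59 and 12.54 on the GmbHLHm1 arrays. All GmbHLHm1 values were higher, by more than the spread within either group, and the log2 change was 0.51 ± 0.06 (SE; interval 0.37 to 0.64; adjusted p = 0.00201). The adjusted p stayed between 0.00213 and 0.0152 when any 1 array was left out. LSC2 (YGR244C), the beta subunit gene, measured 11.63, 11.71 and 11.60 against 11.82, 12.00 and 11.83. Its groups did not overlap either, with GmbHLHm1 replicate 2 the highest, and the log2 change of 0.23 ± 0.06 (SE; interval 0.08 to 0.39) did not pass (adjusted p = 0.0624).

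Fumarase and malate dehydrogenase close the cycle by turning fumarate into malate and malate into oxaloacetate. FUM1 (YPL262W), whose product works in both mitochondria and cytosol, measured 13.35, 13.34 and 13.41 on the empty vector arrays and 13.37, 13.51 and 13.51 on the GmbHLHm1 arrays. GmbHLHm1 replicate 1 lay within the empty vector range, and the log2 change was 0.09 ± 0.06 (SE; adjusted p = 0.327). MDH1 (YKL085W) measured 13.18, 13.15 and 13.18 against 13.59, 13.61 and 13.60. These were the tightest GmbHLHm1 values among the 10 genes, with an SD of 0.0095 (n = 3), and the log2 change was 0.43 ± 0.04 (SE; interval 0.34 to 0.53; adjusted p = 0.00092). Without any 1 array the adjusted p lay between 0.00202 and 0.00891.

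Partner genes of one step were then compared within each array, as the difference between their log2 values, over 6 pairs. The LSC1 minus LSC2 difference was 0.27 log2 units larger in GmbHLHm1 cells, at 0.37 ± 0.02 for the empty vector and 0.64 ± 0.07 for GmbHLHm1 (SD, n = 3 per group; p = 0.1 and adjusted p = 0.15 in a two-sided exact permutation test). The groups did not overlap, so LSC1 exceeded its partner's change on every GmbHLHm1 array, and 0.1 is the smallest p that 3 against 3 allows. The KGD1 minus KGD2 difference moved by 0.01 (exact p = 1) and the IDH1 minus IDH2 difference by -0.09 (exact p = 0.2, adjusted p = 0.24), both with overlapping groups.

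The mitochondrial enzymes were also set against their relatives in other compartments. CIT1 minus CIT2, the peroxisomal citrate synthase gene, moved up by 0.39, from a mean of -0.12 for the empty vector to 0.27 for GmbHLHm1. MDH1 minus MDH2, the cytosolic malate dehydrogenase gene, moved up by 0.34, from -0.59 to -0.25. MDH1 minus MDH3, the peroxisomal one, moved up by 0.43, from -0.60 to -0.17. In both malate dehydrogenase pairs the value stayed below 0, so the gap between the genes was smaller in GmbHLHm1 cells. In each of these pairs the groups did not overlap and the exact permutation test gave p = 0.1 (adjusted p = 0.15 over the 6 pairs), the smallest that 3 against 3 allows. In the citrate synthase pair the log2 change was 0.02 for CIT1 and -0.37 for CIT2, and in the malate dehydrogenase pairs it was 0.43 for MDH1, 0.09 for MDH2 and 0.00 for MDH3.

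**Figure D2:**
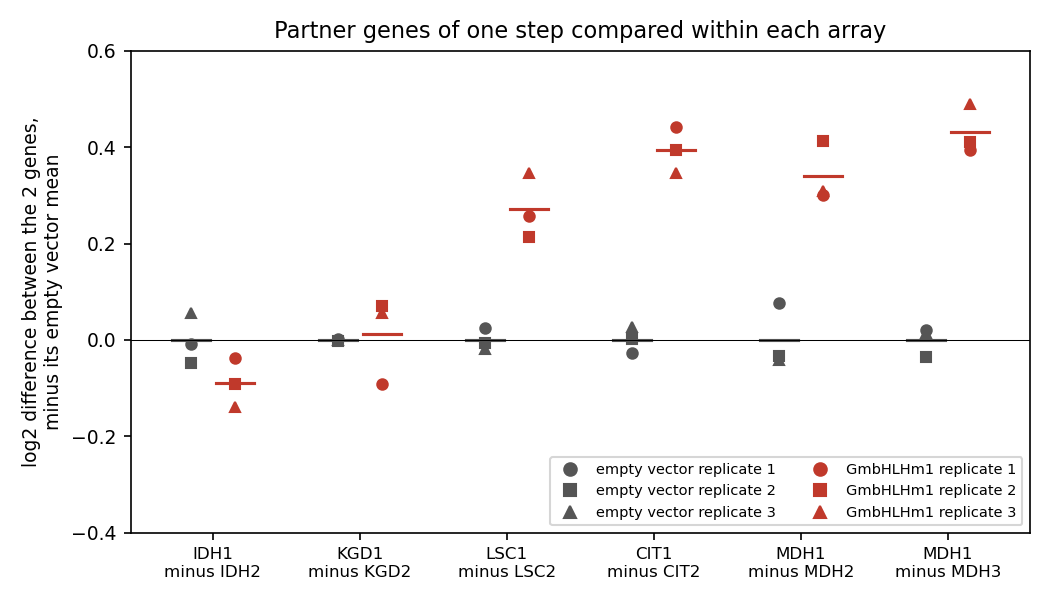
Each point is the difference between the log2 intensities of 2 genes on 1 array, minus the mean of that difference over the empty vector arrays, in grey for the empty vector and red for GmbHLHm1, with lines for group means (n = 3 per group). The groups are apart for LSC1 with LSC2 and for the 3 pairs with a relative in another compartment, at means of 0.27 to 0.43, and overlap for the IDH and KGD pairs.

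The remaining subunits of the cycle comprise succinate dehydrogenase, which feeds electrons from succinate directly into the respiratory chain, and 2 further components of alpha-ketoglutarate dehydrogenase, of which LPD1 also serves other dehydrogenase complexes. Of these 6 genes 4 rose and none fell, with a median log2 change of 0.19, beside 7.45% of all tested genes called higher. In all 6 every GmbHLHm1 array lay above every empty vector array, as in 19.3% of all tested genes. SDH1, the flavoprotein subunit gene, measured 12.61, 12.54 and 12.62 on the empty vector arrays and 12.93, 13.01 and 13.06 on the GmbHLHm1 arrays. It rose by 0.41 ± 0.05 (SE; adjusted p = 0.00313), close in size to MDH1, and passed without any 1 array. SDH4, a membrane anchor subunit gene, rose by 0.17 ± 0.04 (SE; adjusted p = 0.0433), LPD1, the lipoamide dehydrogenase gene, by 0.25 ± 0.05 (adjusted p = 0.0182), and KGD4, whose product ties that enzyme to the complex, by 0.21 ± 0.05 (adjusted p = 0.0296). These 3 calls lie near the threshold. SDH4 passed in none of the 6 fits without 1 array (adjusted p 0.0584 to 0.163), KGD4 only without GmbHLHm1 replicate 1 (otherwise up to 0.131), and LPD1 lost the call whenever an empty vector array was left out (up to 0.0927). SDH3, the other anchor gene, had a log2 change of 0.15 (adjusted p = 0.0708), and SDH2, the iron-sulfur subunit gene, one of 0.07 (adjusted p = 0.365).

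Of 11 isozymes and related genes outside the cycle 3 fell and none rose, beside 4.64% of all tested genes called lower. Their median log2 change was -0.09, with 7 of the 11 below 0 and 4 above, and only CIT2 kept its call in every fit without 1 array. CIT2 (YCR005C) measured 13.85, 13.82 and 13.84 on the empty vector arrays and 13.41, 13.49 and 13.50 on the GmbHLHm1 arrays, and fell by 0.37 ± 0.05 (SE) on the log2 scale (adjusted p = 0.00291, and up to 0.0223 without 1 array). CIT2 is the classic target of retrograde signalling, by which yeast answers loss of mitochondrial function. FRD1, a fumarate reductase gene, fell by 0.18 ± 0.04 (adjusted p = 0.0338), and SHH4, a relative of SDH4, fell by 0.18 ± 0.05 (adjusted p = 0.0433). SHH4 passed in none of the fits without 1 array (0.0664 to 0.179) and FRD1 only without GmbHLHm1 replicate 1 (otherwise up to 0.144).

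The other 8 did not pass. SHH3, a relative of SDH3, had a log2 change of -0.10 and OSM1, the second fumarate reductase gene, one of -0.08. Among the NADP-dependent isocitrate dehydrogenases, the mitochondrial IDP1 had a log2 change of 0.06, the cytosolic IDP2 one of -0.13 and the peroxisomal IDP3 one of 0.12. MDH2 and MDH3 had log2 changes of 0.09 and 0.00, with the upper ends of both intervals, 0.21 and 0.11, below the lower end of that of MDH1. CIT3, a further mitochondrial citrate synthase gene, had one of -0.09 with a wide interval, -0.82 to 0.64, with GmbHLHm1 replicate 2 at 10.31, replicate 3 at 9.20 and replicate 1 lower still. IDP3 was high on the same array, at 11.45 beside 10.85 and 10.74.

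**Figure D3:**
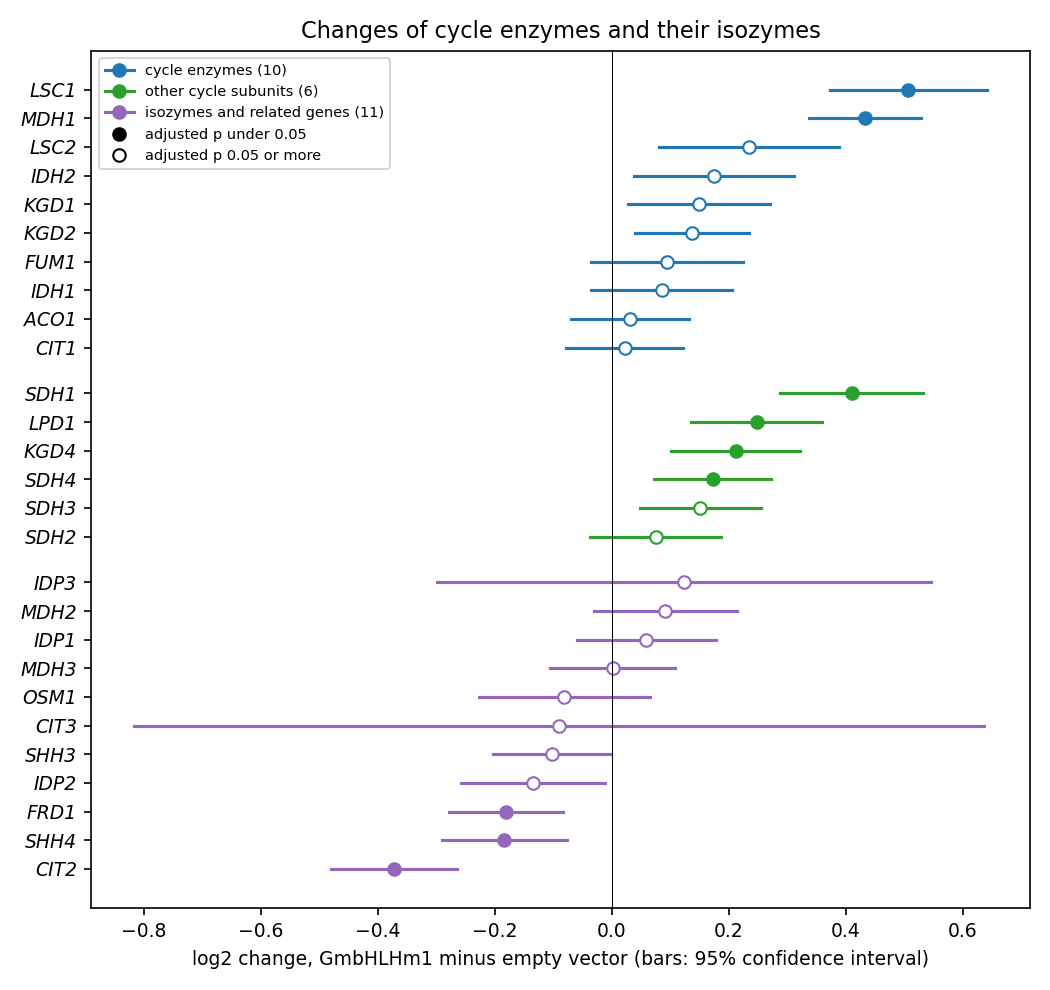
Points are log2 changes, GmbHLHm1 minus empty vector, with 95% confidence intervals from limma (n = 3 per group), in blue for the 10 cycle enzymes, green for 6 other cycle subunits and purple for 11 isozymes and related genes; filled points have an adjusted p under 0.05. LSC1, MDH1 and SDH1 stand highest, CIT1 and ACO1 lie next to 0, and CIT2 is lowest at -0.37.

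Genes that lead carbon into and out of the cycle were described from lists taken by function. None of the 13 genes for pyruvate entry, which include the mitochondrial pyruvate carrier, pyruvate dehydrogenase and pyruvate carboxylase, passed the test with limma, and their median log2 change was 0.00. At an unadjusted p under 0.05 there were 2 higher and 2 lower, beside 26.9% of all tested genes in either direction. Of 7 mitochondrial carriers of cycle acids 2 rose and none fell, beside 7.45% of all tested genes called higher. Their median log2 change was -0.01, with 3 of the 7 above 0 and 4 below. YHM2, a carrier that exchanges citrate for alpha-ketoglutarate, rose by 0.61 ± 0.07 (SE; adjusted p = 0.00222), with an interval of 0.44 to 0.78 that overlaps that of LSC1. ODC1, a carrier of alpha-ketoglutarate and related acids, rose by 0.32 ± 0.06 (adjusted p = 0.0161, and up to 0.0744 without an empty vector array). Of 4 assembly factors of succinate dehydrogenase SDH5 alone passed, with a rise of 0.28 ± 0.05 (adjusted p = 0.0174, and up to 0.0876 without empty vector replicate 1 or 3).

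Among 11 regulators of these genes 4 rose and none fell, beside 7.45% of all tested genes called higher. HAP4, the activating subunit of the Hap complex, measured 10.94, 10.80 and 10.72 on the empty vector arrays and 11.97, 12.24 and 11.99 on the GmbHLHm1 arrays. It rose by 1.25 ± 0.09 (SE; adjusted p = 0.000262), a 2.37-fold difference that was larger than that of any cycle enzyme. HAP3, a DNA-binding subunit gene, rose by 0.52 ± 0.07 (adjusted p = 0.00322), and HAP2, another, by 0.18 ± 0.05 (adjusted p = 0.0433, past the test only without GmbHLHm1 replicate 1 among the fits without 1 array). HAP5, the remaining subunit gene of the complex, had a log2 change of -0.05 and did not pass (adjusted p = 0.707). Its groups overlapped, and it is named here after its value was seen. MKS1, a negative regulator of retrograde signalling, rose by 0.38 ± 0.07 (adjusted p = 0.0136, and up to 0.0702 without empty vector replicate 1 or 2). RTG1, RTG2 and RTG3, the retrograde pathway's own genes, had log2 changes of 0.05, 0.03 and 0.06 and did not pass (adjusted p = 0.587, 0.766 and 0.634).

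The respiratory chain and ATP synthase, without succinate dehydrogenase, had 24 of 36 genes past the test upward and 2 downward, with a median log2 change of 0.28, against 2 of 10 and 0.14 for the cycle enzymes. Across all tested genes 7.45% were called higher and 4.64% lower. The share called lower was 5.56% in the respiratory list, so its downward calls are no result about that list. Whether the lists differ was not tested. ATP17 and ATP2, ATP synthase subunit genes, rose by 0.60 and 0.52, CYC1, cytochrome c, by 0.55 and NDE1, an external NADH dehydrogenase, by 0.47. The 2 that fell, named here after their values were seen, were CYC7, the second cytochrome c gene, by 0.43 and NDE2, the second external NADH dehydrogenase gene, by 0.21; CYC7 lost the call in 3 of the 6 fits without 1 array (adjusted p at most 0.0939) and NDE2 in 5 (at most 0.142). Of 5 genes for the glyoxylate cycle, which bypasses the decarboxylating steps, and gluconeogenesis 2 fell and none rose, with a median of -0.30. The share called lower over all tested genes was 4.64%. ICL1, isocitrate lyase, fell by 0.43 ± 0.08 (SE; adjusted p = 0.015) and FBP1, fructose bisphosphatase, by 0.48 ± 0.11 (adjusted p = 0.0326), and both lost the call whenever an empty vector array was left out (up to 0.0709 and 0.119).

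**Figure D4:**
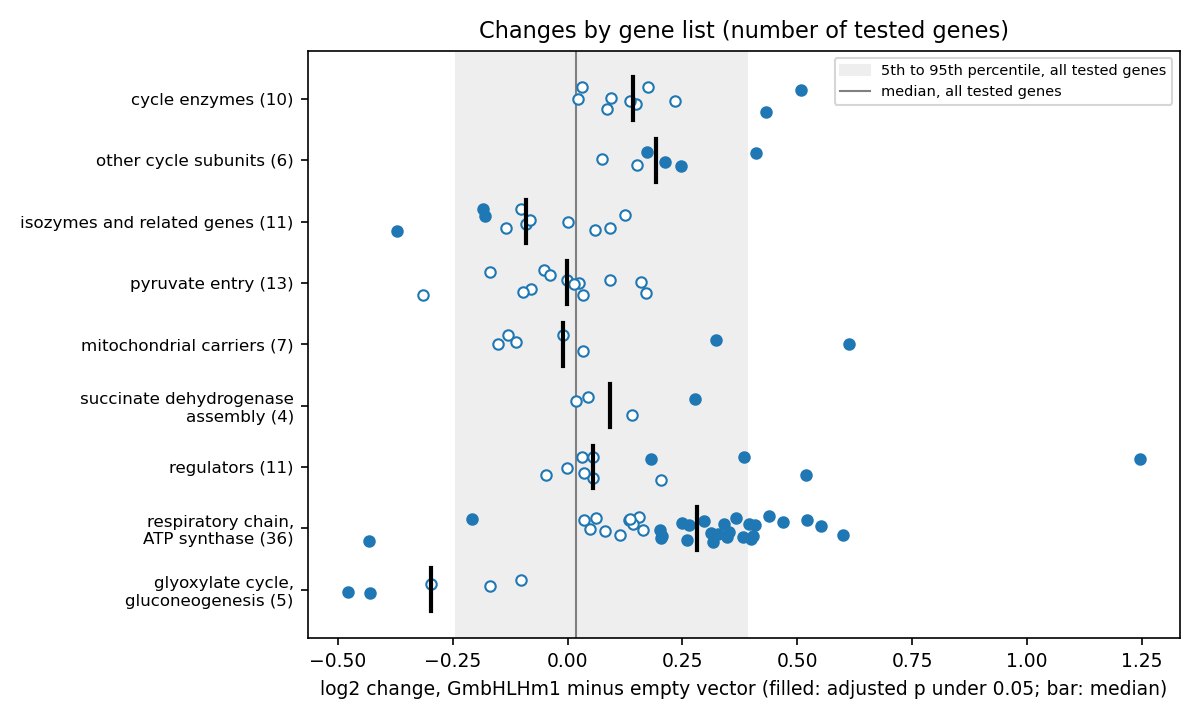
Each point is the log2 change of 1 gene, filled where the adjusted p is under 0.05, with black bars for list medians, a grey line for the median of all tested genes and a grey band from their 5th to 95th percentile, -0.24 to 0.39. The medians of the cycle enzymes and of the respiratory chain lie at 0.14 and 0.28, and that of the glyoxylate cycle and gluconeogenesis at -0.30.

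The genes next to the 10 on their chromosomes were looked up in the gene table. Of 20 adjacent protein-coding genes 18 were tested, of which 1 rose and 1 fell, near the 7.45% and 4.64% of all tested genes, so these calls are no result about the neighbours as a group. The one that fell was HOT13, next to MDH1, which fell by 0.40 on the log2 scale (adjusted p = 0.00609), so MDH1 and its neighbour differed in opposite directions. SRX1, on the other side of MDH1, had a log2 change of -0.43 and did not pass (adjusted p = 0.15). The one that rose was AYR1, next to KGD1, by 0.33 (adjusted p = 0.0327, past the test in 2 of the 6 fits without 1 array). ARP8, the tested neighbour of LSC1, had a log2 change of 0.07 (adjusted p = 0.533). These neighbours were named after their values were seen.

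The call for LSC1 and MDH1 held under every setting tried, whereas the number of the 10 called depended on how the variance was modelled. With array weights 5 were called, IDH2, KGD1 and LSC2 in addition, where 9.03% of all tested genes were called higher. With a trended and robust prior 6 were called, KGD2 in addition to those, where 8.39% of all were called higher. With no moderation of the variance 3 were called, KGD2 in addition to LSC1 and MDH1 (adjusted p = 0.0321), where 3.67% of all were called higher. CIT1, ACO1, IDH1 and FUM1 were called under none of the settings.

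**Figure D5:**
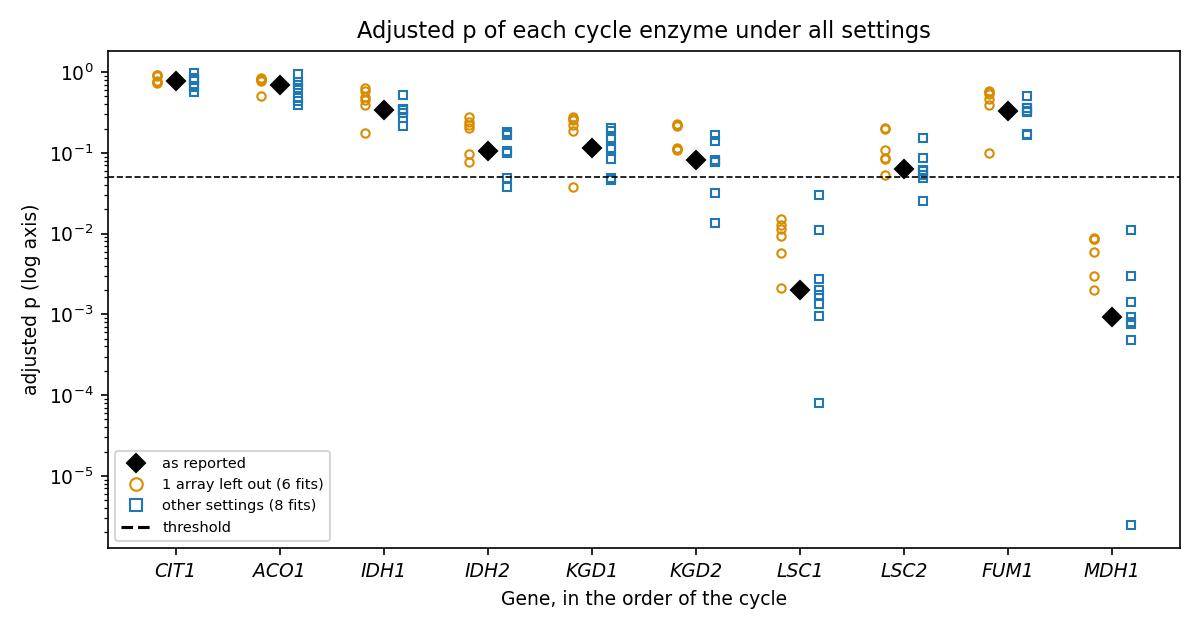
Adjusted p of each cycle enzyme on a log axis, as reported (black), with 1 array left out (orange, 6 fits) and under 8 other settings (blue); the dashed line is the 0.05 threshold. LSC1 and MDH1 stay below the line in all fits, IDH2, KGD1, KGD2 and LSC2 cross it in some, and the other 4 stay above it.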

How the data were processed

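The authors deposited 1 RMA intensity per probe set and array, per the submitters' processing notes; the software behind it is not given in the sources used. They run from 5.00 to 28314, from which the linear scale was read, and their log2 was taken here. RMA makes the arrays' distributions alike, so a shift of all transcripts together would not show. Genes were named through the platform annotation and a RefSeq gene table (assembly R64), whose gene order gave the neighbours. For 47 genes with several probe sets the one with the highest mean was used. The 95th percentile of 1746 probe sets with gene identifiers outside that table was the array's background level. SDH9 (listed as SDH1B) had no named probe set and was not analysed here.

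Groups came from the labels. R 4.3.3 with limma 3.58.1 fitted all 5449 genes (lmFit, then eBayes, unfiltered and unblocked, two-sided, Benjamini-Hochberg over all genes, threshold 0.05). The steps were tested on simulated data. Precision is limited by 3 arrays per group. The members and lists were chosen with earlier results of these data known. All 10 enzymes, the other cycle subunits and the isozymes are named; of other lists up to 4 genes past the test with the largest changes, and HAP4 and RTG1 to RTG3 always. Alternatives were a replicate block, median centring, quantile normalization, a filter on dim genes, array weights, a trended and robust prior, no moderation, the mean over probe sets, a threshold of 0.01 and leaving out each array. Promoter motifs and protein identities were planned but not run, since no sequences were used here. Figures were drawn with matplotlib 3.10.9.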

Additional observations from a re-analysis of the deposited data

How the results depend on the processing

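Over 10 cycle enzymes and 14 alternative fits, 130 of 140 changes kept their direction and their side of the threshold, 9 passed where the reported fit did not, and 1 turned: CIT1 was -0.0039 after median centring. LSC1 and MDH1 were past the test in all 14, and without any 1 array their log2 changes lay between 0.47 and 0.55 and between 0.42 and 0.44. The count of enzymes called higher was 5 with array weights and 6 with a trended and robust prior, and 2 or 3 without any 1 array. It was 3 with no moderation, and 2 with the replicate block, with log2 changes of 0.51 for LSC1 and 0.43 for MDH1. The block left 1 of the other cycle subunits called higher, against 4, and 1 isozyme and 1 respiratory gene called lower, against 3 and 2. Same-numbered arrays did not deviate together (correlations of -0.07, -0.08 and 0.14), so the numbers were not taken as pairs. The split of all calls was 331 higher and 332 lower after quantile normalization, against 406 and 253 as deposited. The change in the KGD1 minus KGD2 difference ran from -0.016 to 0.064 without any 1 array, and turned to -0.016 and -0.0093 without GmbHLHm1 replicate 2 or 3. Without any 1 array 1 to 3 of the other cycle subunits rose (4 as reported), 1 to 2 isozymes fell (3), 0 to 3 genes of the glyoxylate cycle and gluconeogenesis fell (2) and 17 to 23 respiratory genes rose (24). The cause of these differences was not tested. With 3 arrays per group, a gene that did not pass is not shown to be unchanged.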
